A study of Homo sapiens with 6 samples.

Results

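The EGFR family consists of receptor tyrosine kinases and of the small growth factors that bind them. Each ligand is made as a membrane-anchored precursor, and metalloproteinases of the ADAM family release it from the cell surface. Bound receptors pair with one another and phosphorylate their tails, which recruits adaptors that switch on the RAS to ERK cascade and PI3-kinase. ERK signaling in turn raises transcription of immediate early genes, of several EGFR ligands and of inhibitors that damp the receptor. High EGFR is a known feature of basal-like and triple-negative breast cancer cells. Here 10 genes of the family were looked up by symbol in the platform annotation of the array. A row was found for 7 of the 10, the receptors EGFR and ERBB3 and the ligands HBEGF, EREG, NRG1, BTC and EPGN. ERBB2, AREG and TGFA were matched by neither symbol, gene ID nor accession and were not analysed here. Each of the 7 genes had a single transcript cluster, the probe group by which this array reads a gene, among the 53617 on the array. Clusters given more than 1 symbol were not used as named genes. The remaining clusters carry 14884 different symbols, called all named genes below.

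Gene expression was measured in MDA-MB-231, an established human triple-negative breast cancer cell line, on 6 Affymetrix Human Gene 2.0 ST arrays. The Control group holds 3 arrays, from cells that the labels call untreated (vehicle-treated in other assays of the study). The SAM group holds 3 arrays, from cells given 200 μM S-adenosylmethionine (SAM), the methyl donor of the cell, added to the growth medium every other day until harvest. All cells are of this single line, and by the study's methods the RNA came from independent experiments. The values are log2 signal intensities, and on this scale a difference of 1 is a 2-fold change.

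The median signal of an array lay between 4.75 and 4.85. The mean correlation of Control replicate 1 with the other arrays was 0.964, and the others had 0.974 to 0.98. Of 14 symbols listed for basal B breast cancer cell lines (CYR61 and CCN1 name the same gene), 7 had a row, including VIM, MSN and AXL. The 7 also include the keratin genes KRT8 and KRT18, which do not set basal B apart from luminal cells. All 7 genes with a row were above the array median. Of 8 luminal markers with a row, 7 had a mean signal above the median, as did 10683 of the 14884 named genes. The progesterone receptor gene PGR (3.54 to 4.44) was below the array median. The estrogen receptor gene ESR1 (4.8 to 5.37) and FOXA1 (4.84 to 5.17) were slightly above it in all 6 arrays. SPDEF (7.39 to 8.65), KRT19 (7.86 to 8.59), GATA3, EPCAM and XBP1 were further above it. The log2 of the summed signal of these luminal markers was 10.2 to 10.4 in Control and 9.81 to 10.01 in SAM. Of the leukocyte markers 2 of 9 had a row, CD68 (10.2 to 10.9) and CD14 (6.21 to 6.77), both above the array median in all 6 arrays. The log2 of the summed leukocyte signal was 10.3 to 10.5 in Control and 10.7 to 11.0 in SAM. Of 6 endothelial markers 4 had a row, and all 4 had a mean signal above the median. Of 7 stromal markers 2 had a row, DCN and LUM, and both were below the array median in all 6 arrays. The part of any marker set in the results was not tested. Control replicate 2 was the highest of the 6 arrays for 5 of the 7 family genes, EGFR, HBEGF, EREG, NRG1 and EPGN. Over all named genes Control replicate 1 was most often the highest (29.1%), and it was so for 1 of the 7 family genes. Control replicate 2 was the highest for 16.3% of all named genes, and for 18.7% of those above the median signal. The family genes, the list medians and the genes that stand out on this array are therefore given with and without it, a choice made after its values were seen.

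The upstream sequences of HBEGF, EREG and EGFR are shown because these genes had the highest signals of the 7 and were all highest in Control replicate 2, and because SAM supplies the methyl group that cells place on cytosine in CG pairs. Each run is the 250 bases just before the start of the gene model in RefSeq (build GRCh38.p14), 5′ to 3′ on the strand of the gene, and capitals mark every CG pair.
HBEGF, chr5:140346604-140346853, minus strand: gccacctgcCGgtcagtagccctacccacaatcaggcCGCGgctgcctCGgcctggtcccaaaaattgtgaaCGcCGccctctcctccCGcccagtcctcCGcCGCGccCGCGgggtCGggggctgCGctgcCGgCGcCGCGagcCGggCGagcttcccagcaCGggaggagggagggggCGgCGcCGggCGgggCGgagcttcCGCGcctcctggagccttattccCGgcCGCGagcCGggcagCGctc
EREG, chr4:74364895-74365144, plus strand: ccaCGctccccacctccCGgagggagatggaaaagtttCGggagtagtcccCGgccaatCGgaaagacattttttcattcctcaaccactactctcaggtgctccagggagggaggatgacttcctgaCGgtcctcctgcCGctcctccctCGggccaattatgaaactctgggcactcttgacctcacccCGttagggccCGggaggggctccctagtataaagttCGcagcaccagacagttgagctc
EGFR, chr7:55018767-55019016, plus strand: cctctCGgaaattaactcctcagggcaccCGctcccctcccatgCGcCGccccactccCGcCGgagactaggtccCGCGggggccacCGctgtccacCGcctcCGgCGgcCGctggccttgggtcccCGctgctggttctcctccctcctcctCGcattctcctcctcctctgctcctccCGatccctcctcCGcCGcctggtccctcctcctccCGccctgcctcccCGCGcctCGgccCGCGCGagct
The HBEGF window holds 33 CG pairs, more than 91.9% of all 35116 promoter windows of this length. The EGFR window holds 25, more than 78.4% of them, and the EREG window holds 11, which is also the median of all windows. The letters TATAAA, searched on both strands, were found in the EREG window, starting 32 bases before the start of the gene, and in neither of the other windows (10.7% of all windows hold them). TGANTCA, a motif of the AP-1 factors that reads alike on both strands, was in none (0) of these 3 windows and in 6.57% of all. RefSeq has another EGFR window, away from the start of the gene model and not printed here, with 1 CG pair (more than 6.06% of windows), 2 matches to TATAAA and 2 to TGANTCA. The windows of EPGN and AREG also hold TATAAA, 29 bases before the start, and that of BTC does not. They hold 3, 23 and 8 CG pairs. DNA methylation was not measured on these arrays. The genes of EPGN, EREG, AREG and BTC follow one another as neighboring protein-coding genes on chromosome 4.

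SAM-treatment was not followed by a call in any of the 7 EGFR family genes. A gene was called at an unadjusted P under 0.01 with an absolute fold change over 1.5, in the limma fit over all transcript clusters. None (0) of the 7 met this, where 0.699% of all named genes and 1.09% of all transcript clusters did. At an unadjusted P under 0.05 in limma the count was also 0 of 7, against 8.22% of named genes, and the methods' t-test gave 0 at either threshold. The log2 fold change was negative for 6 genes and positive for 1, with a median of -0.16, and the median of all named genes was -0.02. Without Control replicate 2 it was negative for 5 and positive for 2, with a median of -0.052 against -0.028 for all named genes. No gene in the whole table reached an adjusted p under 0.05 (lowest adjusted p 0.245, from limma), and 4285 transcript clusters had an unadjusted P under 0.05. With 3 arrays in each group the exact permutation test cannot go below p = 0.1, and the number of arrays limits the precision. Each array reads pooled cells, so fewer cells expressing a gene and less RNA per cell cannot be told apart.

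**Figure D1:**
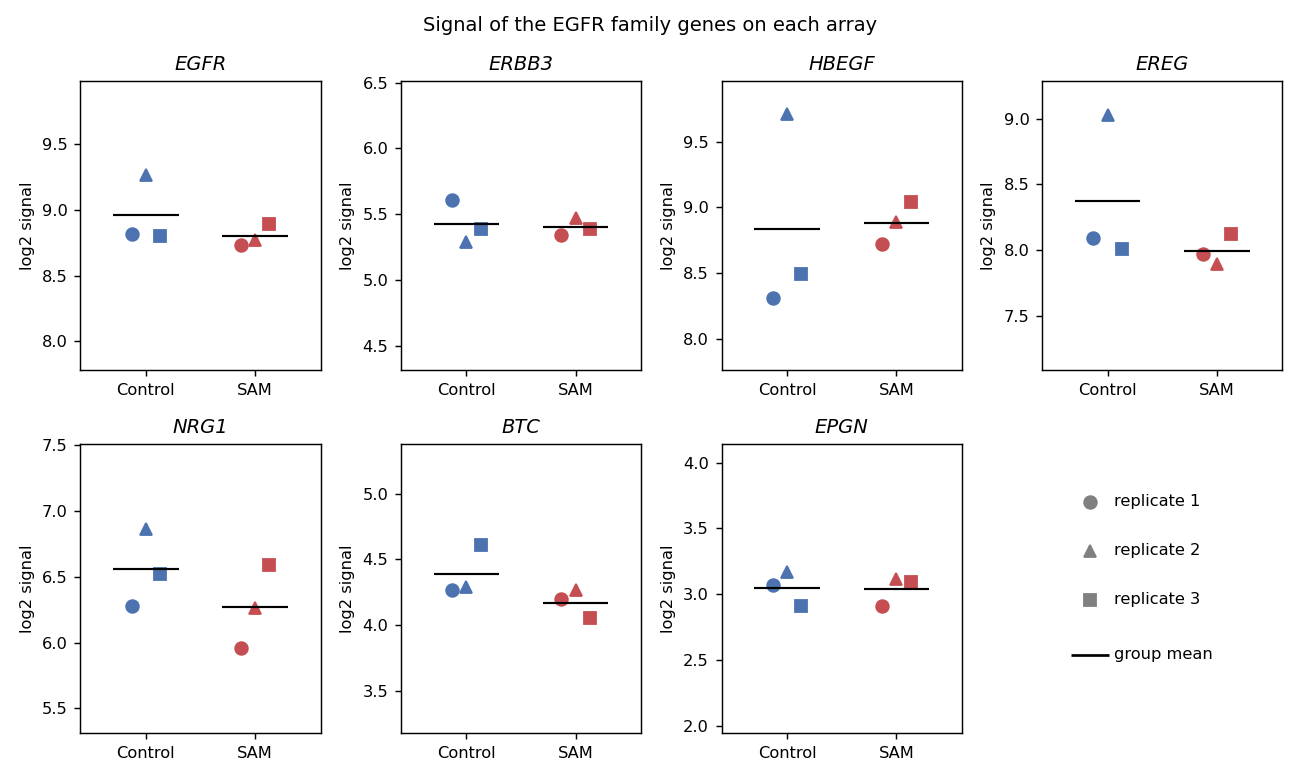
Log2 signal of the 7 EGFR family genes (vertical axis, a span of 2.2 in each panel) on the 3 Control and 3 SAM arrays; marker shape gives the replicate number and the line the group mean. Control replicate 2 (blue triangle) stands above every other array for HBEGF (9.71), EREG (9.03), EGFR (9.27) and NRG1 (6.87).

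EGFR, the receptor of EGF, TGF-α, amphiregulin and the heparin-binding and epiregulin ligands, was well above the array median in every array. Its log2 signal was 8.82, 9.27 and 8.80 in the control arrays and 8.73, 8.77 and 8.89 in the SAM arrays. Control replicate 2 was the highest array, the other 5 lay within 8.73 to 8.89, and the groups overlapped. The mean went from 8.96 ± 0.265 to 8.80 ± 0.0811 (SD, n = 3 in each group), a log2 fold change of -0.16 (SE 0.16, 95% interval -0.54 to 0.21, limma adjusted p = 0.792). As a ratio of SAM over Control this interval runs from 0.688 to 1.16, so a fall of 1.5-fold lies just beyond it. When Control replicate 2 was left out, EGFR had a log2 fold change of -0.0093 (SE 0.14, 95% interval -0.35 to 0.33).

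ERBB3 encodes a receptor with little kinase activity of its own that binds neuregulins and signals through its partners. Its log2 signal was 5.61, 5.29 and 5.38 in the control arrays and 5.34, 5.47 and 5.39 in the SAM arrays. These values were slightly above the array median, and the SAM arrays fell inside the range of the control arrays. The log2 fold change was -0.03 (SE 0.13, 95% interval -0.34 to 0.29, limma adjusted p = 0.963). It was 0.06 without Control replicate 1, -0.097 without Control replicate 2 and 0.0022 without SAM replicate 1.

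HBEGF encodes heparin-binding EGF-like growth factor, a ligand of EGFR and ERBB4 that is shed by ADAM proteases. Its CG-rich upstream window is shown above. The log2 signal of HBEGF was 8.31, 9.71 and 8.49 in the control arrays and 8.72, 8.89 and 9.04 in the SAM arrays. All SAM arrays lay between Control replicate 2 and the remaining control arrays, so the groups overlapped only through that array. The group means were 8.84 ± 0.759 and 8.88 ± 0.16 (SD, n = 3), a log2 fold change of 0.04 (SE 0.35, 95% interval -0.76 to 0.85, limma adjusted p = 0.979). This was the widest interval among the 7 genes, and it includes changes of more than 1.5-fold in both directions. When Control replicate 2 was left out, HBEGF had a log2 fold change of 0.48 (SE 0.16, 95% interval 0.087 to 0.87, limma adjusted p = 0.521), with the 3 SAM arrays above both remaining controls. It did not pass the thresholds there either, nor did any other of the 7 (0 of 7, against 0.947% of named genes). Without that array 31.3% of all named genes have groups that do not overlap and 7.97% an unadjusted P under 0.05. Without Control replicate 1, Control replicate 3 or SAM replicate 3 its sign turned (-0.22, -0.13 and -0.033).

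EREG encodes epiregulin, a ligand of EGFR and ERBB4. Its log2 signal was 8.09, 9.03 and 8.01 in the control arrays and 7.97, 7.90 and 8.12 in the SAM arrays. Control replicate 2 was again apart, and the other 5 arrays spanned 7.90 to 8.12. The mean went from 8.38 ± 0.569 to 8.0 ± 0.116 (SD, n = 3), a log2 fold change of -0.38 (SE 0.27, 95% interval -1.01 to 0.25, limma adjusted p = 0.722). This was the lowest log2 fold change of the 7 genes. Without Control replicate 2 it was -0.05 (SE 0.15, 95% interval -0.41 to 0.30, limma adjusted p = 0.924).

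NRG1 encodes neuregulin 1, a ligand of ERBB3 and ERBB4. Its log2 signal was 6.28, 6.87 and 6.52 in the control arrays and 5.96, 6.26 and 6.59 in the SAM arrays. The spread within each group (SD 0.295 and 0.315, n = 3) was as wide as the difference between the means of 6.56 and 6.27. The log2 fold change was -0.29 (SE 0.21, 95% interval -0.78 to 0.21, limma adjusted p = 0.732), and -0.13 without Control replicate 2. NRG1 has several promoters and isoforms, which this single value per gene does not tell apart.

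BTC, the gene of betacellulin, a ligand of EGFR and ERBB4, was below the median of every array. Its log2 signal was 4.27, 4.29 and 4.61 in the control arrays and 4.19, 4.27 and 4.05 in the SAM arrays. BTC was the 1 family gene of the 7 whose groups did not overlap, as was the case for 18.5% of all named genes. The gap was small, since the highest SAM array (4.2665) and the lowest control array (4.2667) differ only in the fourth decimal. The log2 fold change was -0.22 (SE 0.15, 95% interval -0.56 to 0.12, limma adjusted p = 0.709; exact permutation p = 0.1, the smallest this design allows). EPGN, the gene of epigen, another EGFR ligand, had the lowest mean signal of the 7 genes, far below the array median. It gave 3.07, 3.17 and 2.91 in the control arrays and 2.91, 3.11 and 3.10 in the SAM arrays, with a log2 fold change of -0.0099 (SE 0.13, 95% interval -0.32 to 0.30). For BTC and EPGN the array does not show whether any transcript was present. Signals of different transcript clusters depend on their probes, so the order of these genes by signal is not an order of transcript amounts.

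**Figure D2:**
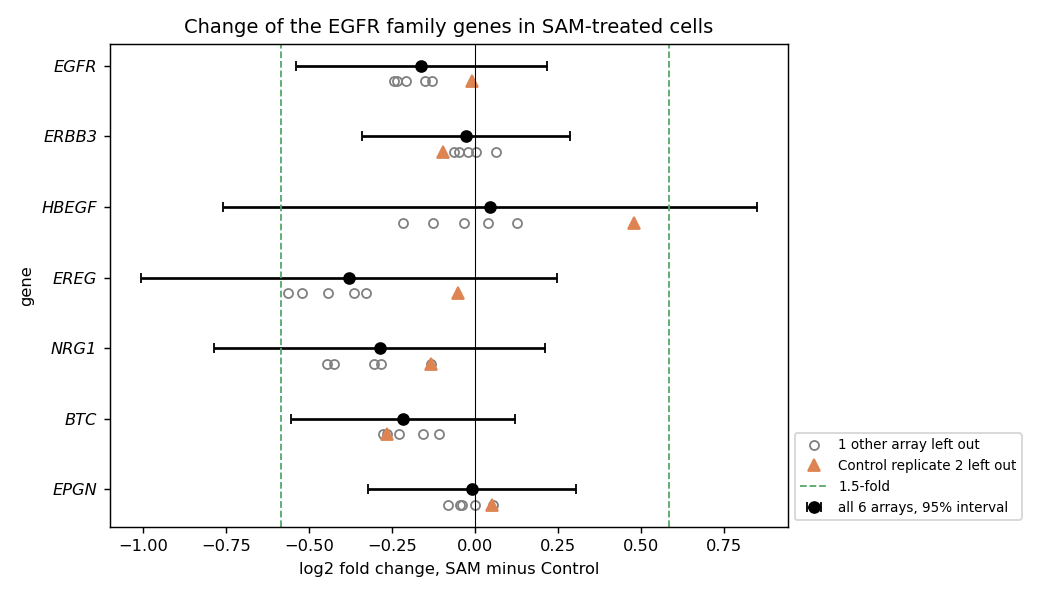
Log2 fold change of SAM against Control (horizontal axis) for the 7 EGFR family genes: black points and bars give the limma estimate and 95% interval over all 6 arrays, open circles the value with 1 other array left out, and orange triangles the value without Control replicate 2; dashed lines mark 1.5-fold. HBEGF moves from 0.04 to 0.48 and EREG from -0.38 to -0.05 without Control replicate 2.

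The rest of the family was read in the same way, since ERBB4, EGF, NRG2, NRG3 and NRG4 all had a row. None (0) of these 5 passed both thresholds, and 1 of 5, NRG4, had an unadjusted P under 0.05 in limma (8.22% of all named genes did). NRG4, a neuregulin that binds ERBB4, had log2 signals of 3.63, 3.58 and 3.91 in the control arrays and 4.14, 4.42 and 4.08 in the SAM arrays. All SAM values were above all control values, though each was below the array median. The groups did not overlap for 18.5% of all named genes. The log2 fold change was 0.51 (SE 0.15, 95% interval 0.15 to 0.87, limma adjusted p = 0.575), a 1.42-fold difference. NRG4 passed both thresholds without Control replicate 3 (log2 fold change 0.61). The log2 fold change was 0.06 for ERBB4, -0.08 for EGF and -0.24 for NRG3. The median of these 5 genes was 0.0098, and -0.0026 without Control replicate 2. NRG2 had a log2 fold change of 0.0098 in its brighter transcript cluster and -0.25 (SE 0.16) in its other one, and neither passed.

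Among the genes that release, relay or damp the signal, 1 passed both thresholds. Of 13 genes of ligand shedding, 12 had a row, of which ADAM8 was lower and 11 did not pass (0.537% of all named genes were called lower). ADAM8, a membrane metalloproteinase, had log2 signals of 8.05, 8.07 and 7.72 in the control arrays and 7.27, 7.56 and 7.22 in the SAM arrays. The groups did not overlap, as was the case for 18.5% of all named genes. ADAM8 fell by 0.59 on the log2 scale (SE 0.16, limma adjusted p = 0.565), which is 1.51-fold and just past the minimum. Its call ended without Control replicate 1 (-0.54), Control replicate 2 (-0.53), SAM replicate 1 (-0.55) or SAM replicate 3 (-0.53), after another quantile or cyclic loess normalization and by the methods' t-test. RHBDF1, a pseudoprotease that helps the main sheddase mature, had a log2 fold change of -0.40 ± 0.13 (SE; limma adjusted p = 0.576). ADAM17, the main sheddase of HBEGF and epiregulin, had 7.97, 8.56 and 7.76 in the control arrays and 7.69, 7.59 and 7.68 in the SAM arrays, and did not pass (log2 fold change -0.44, SE 0.21). ADAM17 too was highest in Control replicate 2, and without that array its log2 fold change was -0.21 (SE 0.15). ADAM10, which sheds betacellulin, was at 0.08 ± 0.12 (log2 fold change and SE), and the list had a median of -0.09 (-0.072 without Control replicate 2).

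Of 27 adaptors and first effectors, 15 had a row and none (0) passed, with a median log2 fold change of -0.13 (-0.04 without Control replicate 2). Against 8.22% of all named genes, 1 gene of the 15 had an unadjusted P under 0.05 in limma. That gene was GAB2, a docking protein that binds PI3-kinase, with a log2 fold change of -0.49 ± 0.16 (SE; limma adjusted p = 0.579). GAB2 passed both thresholds without Control replicate 3 (-0.66). MAPK3, which encodes the kinase ERK1, had the next smallest P and a log2 fold change of -0.22 (SE 0.13), and the adaptor GRB2, the first to bind the phosphorylated receptor, had 0.06.

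Of 24 receptor inhibitors and endocytosis genes, 18 had a row and none (0) passed both thresholds. Against 8.22% of all named genes, 2 of the 18 had an unadjusted P under 0.05 in limma. Both were Sprouty genes, feedback inhibitors of receptor tyrosine kinase signaling that ERK induces. SPRY4 had log2 signals of 8.87, 9.11 and 8.90 in the control arrays and 8.25, 8.42 and 8.48 in the SAM arrays. The groups did not overlap, as was the case for 18.5% of all named genes. The log2 fold change was -0.58 (SE 0.13, 95% interval -0.89 to -0.26, limma adjusted p = 0.565), which at 1.49-fold is just short of the fold minimum. SPRY4 passed both thresholds without Control replicate 1 (-0.62), Control replicate 3 (-0.61), SAM replicate 2 (-0.60) or SAM replicate 3 (-0.62), and when each array was centred on its median. SPRY2 had 8.19, 8.53 and 8.04 in the control arrays and 7.78, 7.54 and 7.86 in the SAM arrays, and a log2 fold change of -0.52 ± 0.17 (SE; limma adjusted p = 0.576). The median over the list was -0.13, and -0.05 without Control replicate 2. LRIG1, a transmembrane inhibitor that promotes loss of EGFR, had a log2 fold change of -0.03 ± 0.14 (SE).

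Of 23 symbols listed for EGFR and ERK targets (IL8 and CXCL8 name the same gene), 18 had a row and none (0) passed. Their log2 fold changes were negative for 16 and positive for 2, with a median of -0.21. Without Control replicate 2 there were 9 negative and 9 positive values and the median was -0.016. The limma P over all arrays, unadjusted, was under 0.05 for 8.22% of all named genes and for 2 of these 18. The 2 were the ETS factor genes ETV5 (-0.42, SE 0.17) and ETV1 (-0.42, SE 0.18). Both lay near that limit (P of 0.0465 and 0.0467 in limma) and P was above 0.05 without Control replicate 2, after another quantile or cyclic loess normalization, with the replicate number as a block and by the methods' t-test. ETV1 was at -0.26 without SAM replicate 2. The phosphatase gene DUSP6, which switches off ERK, had a log2 fold change of -0.20 ± 0.14 (SE). For comparison, 22 of 28 other receptor tyrosine kinase genes had a row and none (0) passed. Against the same 8.22% of named genes, 2 of the 22 had an unadjusted P under 0.05 in limma. These were MST1R (-0.37, SE 0.11) and the insulin receptor gene INSR (-0.42, SE 0.14), and the median of the list was -0.06 (-0.025 without Control replicate 2). The dimmer transcript cluster of MST1R gave -0.019 (SE 0.12), and the mean of both clusters -0.19 (SE 0.11). MET and AXL, kinases that can signal beside EGFR, had log2 fold changes of 0.08 (SE 0.17) and -0.06 (SE 0.14). IGF1R did not pass over all arrays (-0.41, SE 0.23) but did without Control replicate 2 (-0.66). The shared direction of lists was not tested.

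**Figure D3:**
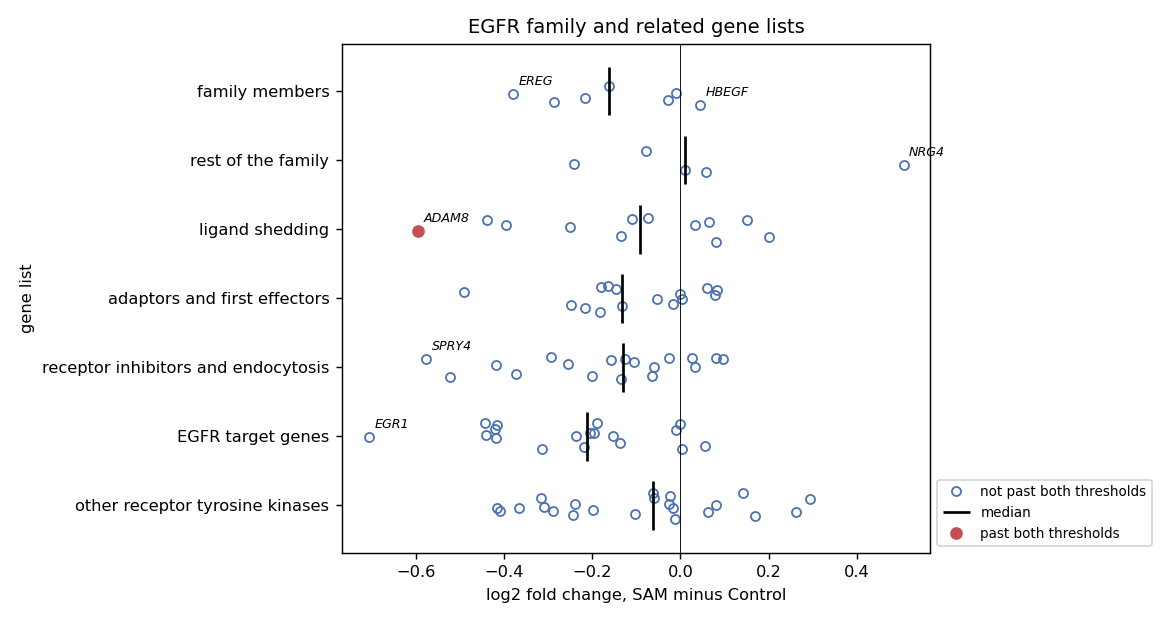
Log2 fold change of SAM against Control (horizontal axis) for each gene with a row, by list; open circles did not pass both thresholds, the filled circle (ADAM8) did, and bars mark the list medians. The median was -0.16 for the 7 family members and -0.21 for the EGFR targets, against -0.02 for all named genes, and without Control replicate 2 these medians were -0.052, -0.016 and -0.028.

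Control replicate 2 was the highest array for the ligand genes HBEGF, EREG, NRG1 and EPGN, for EGFR and for several of the listed EGFR targets. HBEGF was 1.30 higher on the log2 scale there than in the mean of the other control arrays (2.47-fold), EREG 0.98 higher (1.98-fold), NRG1 0.47 and EGFR 0.46 higher. EPGN, near the low end of the signals, was 0.18 higher, and BTC (-0.15) and ERBB3 (-0.21) were lower there. EGR1, an immediate early transcription factor gene, had log2 signals of 9.42, 11.6 and 9.73 in the control arrays and 9.32, 9.83 and 9.45 in the SAM arrays. PTGS2, the gene of cyclooxygenase 2, had 7.08, 9.47 and 7.49 in the control arrays and 7.26, 8.06 and 7.78 in the SAM arrays. In both, Control replicate 2 was the highest array, and the SAM arrays overlapped the other control arrays. Control replicate 2 was also 1.49 higher for the chemokine gene CXCL8, 1.29 higher for the cytokine gene LIF and 0.76 higher for ERRFI1. ERRFI1 is an ERK-induced inhibitor that binds the EGFR kinase. SAM replicate 2 was the highest SAM array for EGR1, PTGS2 and CXCL8, but not for LIF, ERRFI1, HBEGF, EREG, EGFR or NRG1. In total, Control replicate 2 was the highest array for 13 of the 18 EGFR targets and for 12 of the 18 inhibitors and endocytosis genes, for 5 of the 12 shedding genes, 6 of the 15 adaptors and first effectors and 5 of the 22 other receptor tyrosine kinases, and for 0 of the 5 genes of the rest of the family. Among the targets FOS was highest in Control replicate 3 (7.61, against 7.34 in Control replicate 2). Its dimmer transcript cluster was highest in Control replicate 2 (6.14, against 5.97 in Control replicate 3). The background was 16.3% of all named genes. FOS and the 5 other genes given here with values besides the family were picked after their values were seen. What set Control replicate 2 apart was not tested.

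When Control replicate 2 was left out, the log2 fold change of EGR1 was -0.04 in place of -0.71, that of LIF 0.012 in place of -0.42, that of ERRFI1 -0.0027 in place of -0.26, that of CXCL8 0.34 in place of -0.15 and that of PTGS2 0.41 in place of -0.31. None of these 5 passed with or without it. Without that array SPRY4 was at -0.50, SPRY2 at -0.39, ADAM8 at -0.53 and NRG4 at 0.44. In these 4 genes the groups did not overlap over all arrays. Leaving out an array could therefore change neither the sign nor the lack of overlap.

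**Figure D4:**
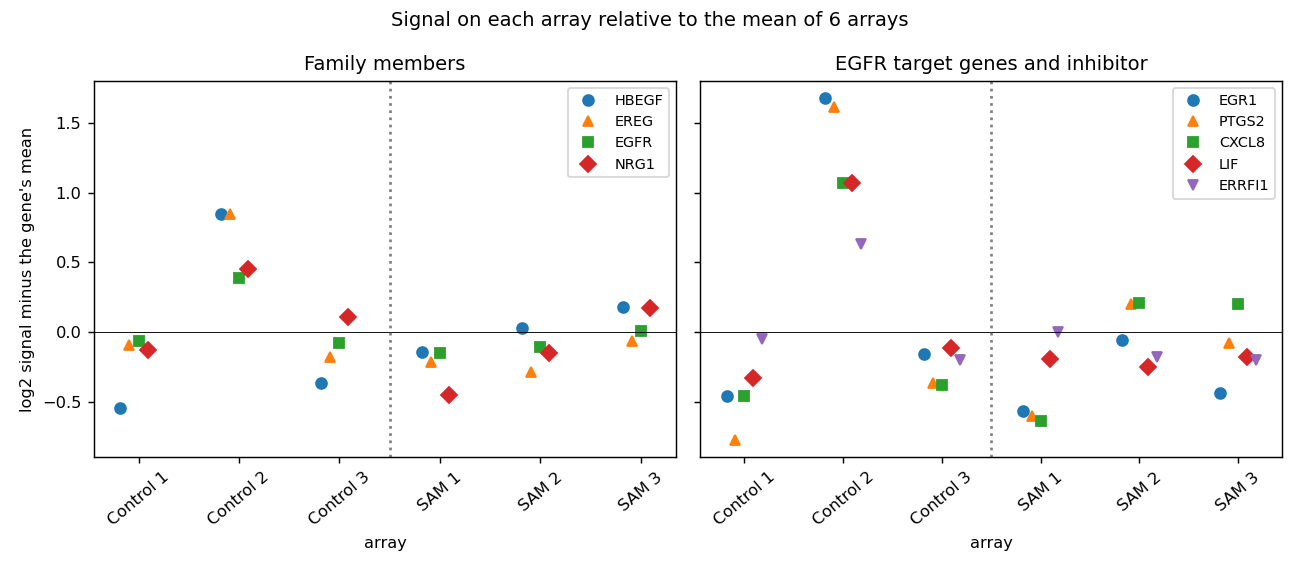
Log2 signal on each array minus the mean of that gene over 6 arrays (vertical axis), for 4 family genes (left) and for 4 EGFR targets with the inhibitor ERRFI1 (right); the dotted line parts Control from SAM arrays. All 9 genes are highest in Control replicate 2.

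The named genes with the profile closest to the brightest family members were found by the root mean square difference of mean-centred log2 signals over the 6 arrays, among 10682 genes above the median signal, a comparison added after the values were seen. For EREG, whose own profile had a root mean square of 0.385, the closest were MXD1 (0.0729), TMEM154 (0.0783) and IRAK2 (0.0916). For HBEGF (0.448) they were CD22 (0.147), ANKFN1 (0.161) and NAMPT (0.167), and for EGFR (0.18) DEDD (0.0395), RAB3GAP2 (0.0463) and PLPP1 (0.0468). The points share their arrays, so this describes these 6 arrays only.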

How the data were processed

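Per the labels and the study's methods, total RNA of MDA-MB-231 cells with or without SAM was hybridised to Affymetrix Human Gene 2.0 ST arrays, and the authors deposited log2 signal intensities made by RMA in the Bioconductor package oligo (RMA corrects background, quantile-normalizes and summarises the probes of a transcript cluster). The version of oligo is not given in the sources used here. No filter is stated and none was applied, so quantile normalization holds the overall signal alike between arrays and changes are relative.

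SAM was compared with Control over all 53617 transcript clusters with limma 3.58.1 (lmFit, eBayes; R 4.3.3), with no covariate or block. The thresholds are those of the study's methods, and adjusted p-values are Benjamini-Hochberg values from all clusters. The p-values measure the spread between these arrays. Symbols came from the platform annotation, in which 16098 clusters have exactly 1 symbol, and the brightest of these clusters was used for a gene. Clusters with more than 1 symbol were treated as unnamed. Sequences are from RefSeq. Promoter windows were matched for 8 of the 10 genes.

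The family genes, gene lists and rules were chosen with earlier results of these data known. Named genes are the family, the 2 genes with the smallest P of each list and every gene past both thresholds; others serve as examples chosen after their values were seen. The rule's search for similar profiles applied to 0 members, as none had an unadjusted P under 0.05. The fit was also run on simulated data with independent noise and known changes. No simulated array stood apart as Control replicate 2 did, so this run does not bear on that array. How often changes at the 1.5-fold minimum were found is not reported here.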

Additional observations from a re-analysis of the deposited data

How the results depend on the processing

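None (0) of the 7 EGFR family genes passed both thresholds under any alternative run, and without any one array the count was 0 as well. BTC and EPGN were not part of the run with dim clusters left out. The count over all transcript clusters was 582, of which 249 were higher. It was 359 with dim clusters left out, 165 with only named clusters, 188 by the methods' t-test, 921 with no fold minimum, 143 at over 2-fold and 463 to 934 with 1 array left out, the highest without Control replicate 2. Of the list genes 1 passed (ADAM8), against 0 after quantile or cyclic loess normalization, by the methods' t-test or at over 2-fold, and 2 (ADAM8 and SPRY4) with arrays centred on their median or no fold minimum. With 1 array left out it was 0 to 4, the lowest without SAM replicate 1 and the highest without Control replicate 3. The median of the family genes was -0.23 to -0.05 with 1 array left out, the value nearest 0 without Control replicate 2. NRG2 turned to -0.029 with arrays centred, -0.12 as the mean of its clusters and -0.25 in its dimmest one. With 1 array left out the log2 fold change spanned -0.097 to 0.062 for ERBB3, -0.22 to 0.48 for HBEGF, -0.081 to 0.055 for EPGN, -0.11 to 0.10 for NRG2, -0.0026 to 0.13 for ERBB4, -0.78 to 0.41 for PTGS2, -0.69 to 0.012 for LIF and -0.42 to 0.34 for CXCL8. The cause of these changes was not tested, beyond the fewer clusters or arrays used. With the replicate number as a block, 659 clusters and 0 family genes passed, the median of the family genes was -0.16 and no other call named here changed. Over all transcript clusters, arrays of the same number had deviations from their group means that correlated at -0.0027, -0.0748 and 0.109. The numbers were therefore not taken as pairs, and pairing in single genes was not tested. With the block the SE was 0.34 in place of 0.51 for EGR1 and 0.36 in place of 0.58 for PTGS2. With and without the block it was 0.27 for EREG and 0.16 for EGFR. Dim genes such as BTC and EPGN are limited by their closeness to background.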
